A study of Mus musculus with 9 samples.

Results

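The data described here are the 3 sham libraries of a set of 9, which serve as the uninjured baseline of a study of mild traumatic brain injury in mouse hippocampal neurons. They were chosen by their label alone, and all 55421 genes of the count table were considered, without a contrast between groups. Per the labels, the 3 libraries came from wild-type mice that underwent the operation without the controlled cortical impact. The other 6 libraries, used here only to set the spread between libraries in context, came from injured mice, 3 wild-type and 3 with a conditional knockout of Tmsb4x. Mice of all groups expressed the red fluorescent protein tdTomato in neurons; hippocampi were dissociated with trypsin after saline perfusion, and live tdTomato-positive cells were collected by flow cytometry. The labels give neither the promoter that drives tdTomato or Cre, the age and sex of the mice, nor the time between the operation and collection.

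The hippocampus holds glutamatergic pyramidal cells in the CA fields, granule cells in the dentate gyrus, and a smaller, diverse population of GABAergic interneurons. Glutamate acts there on AMPA, NMDA and kainate receptors, calcium entering through NMDA receptors binds calmodulin, and calcium-bound calmodulin activates the kinase CaMKII, a main component of the postsynaptic density. Many of these proteins are encoded by several paralogous genes, and which paralog dominates is characteristic of a cell type.

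The 3 libraries held 38508346, 36452443 and 38123135 counts, with 26857, 26413 and 26703 genes having at least 1 count. Both mates of a read pair were counted, so the number of sequenced fragments behind a value is about the count divided by 2. Levels of different genes are given as TPM, the usual transcript-level unit, which divides counts by the length of the gene's exons and scales them to the same total in every library. Levels of 1 gene in several libraries are also given as CPM, counts scaled to the library total without regard to length. Where 3 values stand together they are those of sham libraries 1, 2 and 3 in that order. The labels speak of 3 mice per group but do not say how mice map to libraries, and the sham libraries differed little beyond counting noise, so the SDs given here may be technical rather than biological.

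Tmsb4x, the gene of thymosin beta 4, a peptide that sequesters actin monomers, is deleted in the knockout and checks the labels. It held 105, 61 and 85 counts in the sham libraries, or 2.21 ± 0.52 CPM (SD, n = 3), against 296 to 900 CPM in the 3 wild-type injured libraries and 1.83 to 2.79 CPM in the 3 knockout libraries. The libraries labelled wild-type sham thus lay at the level of the knockout, which goes against their genotype label for this gene. Its paralog Tmsb10 was at 129, 121 and 120 CPM in sham and between 116 and 179 CPM in the injured libraries. Transcripts of the Y-linked genes Eif2s3y and Ddx3y averaged 52.4 and 41.4 TPM, and Xist, expressed from the inactive X chromosome, averaged 0.10 TPM.

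Sets of paralogs compared below differ in how much sequence they share, which bears on how many reads could be assigned to 1 gene. Calmodulin is encoded by genes that include Calm2 (chr17:87433412-87446935, minus strand) and Calm3 (chr7:16915379-16924114, minus strand) in build GRCm38. Their coding sequences, from GENCODE M21, have 447 bases each and specify the same protein, with 0 differing amino acids among 149 codons, yet 78 bases differ and the longest shared run has 17 bases. The first 90 coding bases are printed 5′ to 3′, with capitals at the 15 positions that differ between them.
Calm2: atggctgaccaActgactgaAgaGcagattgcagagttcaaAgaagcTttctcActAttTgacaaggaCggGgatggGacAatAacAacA
Calm3: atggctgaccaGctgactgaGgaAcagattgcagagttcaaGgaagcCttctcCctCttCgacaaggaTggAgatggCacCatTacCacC

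The cytoplasmic actins Actb (chr5:142903115-142906754, minus strand) and Actg1 (chr11:120345690-120348542, minus strand) differ in 128 of 1125 coding bases and in 4 amino acids. The beta-thymosins Tmsb4x (chrX:167207093-167209315, minus strand) and Tmsb10 (chr6:72957347-72958748, minus strand) differ in 40 of 132 coding bases and in 11 of 44 amino acids. Their first 90 coding bases follow, with capitals where the 2 members of a pair differ, at 16 positions for the actins and 23 for the thymosins.
Actb: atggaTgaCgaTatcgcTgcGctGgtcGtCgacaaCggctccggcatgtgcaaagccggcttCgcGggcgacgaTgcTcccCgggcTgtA
Actg1: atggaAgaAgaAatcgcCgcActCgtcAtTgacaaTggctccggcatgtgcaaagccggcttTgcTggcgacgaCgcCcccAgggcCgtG
Tmsb4x: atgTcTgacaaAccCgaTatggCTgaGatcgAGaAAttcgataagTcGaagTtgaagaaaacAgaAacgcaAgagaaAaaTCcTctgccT
Tmsb10: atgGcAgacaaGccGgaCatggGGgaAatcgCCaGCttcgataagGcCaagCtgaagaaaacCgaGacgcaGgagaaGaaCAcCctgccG

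Other pairs were closer. Tuba1a and Tuba1b share 98.3% of their coding bases, with a common run of 281 bases, and the alpha globins Hba-a1 and Hba-a2 differ in 1 of 426. A read of 150 bases that lies within such a run can have several equal alignments, and multi-mapping reads were left out of the counts. Levels of these genes may therefore be too low. Neither alignments nor pairs of mates were examined. As a measure of shared sequence, the share of all 150-base windows of a gene's longest transcript that recur in an annotated transcript at another place was computed. It was 0% for Calm2, Calm3, Actb and Tmsb4x, 9.06% for Tmsb10, 37.6% for Tuba1a, 43.5% for Actg1 and 53.0% for Tuba1b.

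A total of 18666 genes reached a mean of 1 TPM, 14126 of them protein-coding, and 10626, 1821 and 62 genes reached 10, 100 and 1000 TPM. Expression was concentrated: the 100 most abundant genes of a library held 27.4 ± 0.22% of its TPM (SD, n = 3), and 50% of all TPM came from 713 ± 7.0 genes. By counts, which weigh long transcripts more, the 100 leading genes held 17.7 ± 0.070% and 50% came from 1063 ± 5.29 genes. The 100-gene share of TPM was 16.2% with mitochondrially encoded genes left out of the total. Protein-coding genes took 97.1 ± 0.051% of counts and lincRNAs 1.23 ± 0.031%.

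**Figure D1:**
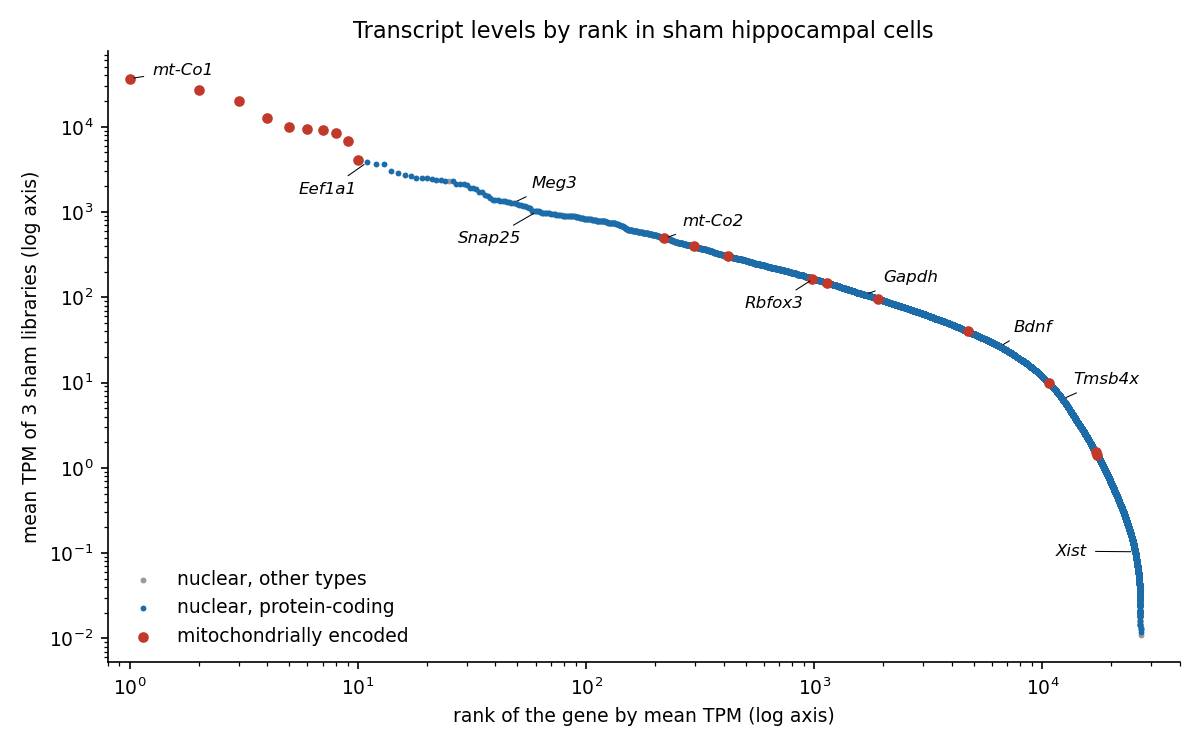
Mean TPM of the 3 sham libraries (y axis, log scale) against the rank of the gene (x axis, log scale), with mitochondrially encoded genes in red, nuclear protein-coding genes in blue and other nuclear genes in grey. The 10 highest ranks are mitochondrially encoded, Eef1a1 at rank 11 is the highest nuclear gene, and a further group of mitochondrially encoded genes lies at or below rank 220, from mt-Co2 down.

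The 10 genes of highest TPM were all encoded by the mitochondrial genome, whose genes together held 4.47 ± 0.10% of counts and 14.6 ± 0.35% of TPM. mt-Co1, the catalytic subunit of cytochrome c oxidase, stood first at 36879, 37228 and 36245 TPM. mt-Cytb, the cytochrome b of complex III, averaged 26649 TPM, and the complex I subunits mt-Nd1, mt-Nd2, mt-Nd4, mt-Nd5 and mt-Nd6 averaged between 6849 and 20296 TPM. The mitochondrial ribosomal RNAs mt-Rnr1 and mt-Rnr2 averaged 9096 and 8443 TPM. The remaining protein genes were far lower: mt-Co2 averaged 492 TPM, mt-Atp6 398, mt-Co3 303, mt-Nd3 166, mt-Nd4l 147 and mt-Atp8 96.1 TPM. These genes are transcribed as parts of long common precursors. In 5 of these 6, mt-Co2, mt-Atp6, mt-Co3, mt-Nd3 and mt-Nd4l, between 97.0% and 99.8% of 150-base windows recurred in a transcript annotated elsewhere, and in mt-Atp8 none did. Only annotated transcripts were searched, so copies in unannotated sequence would be missed. mt-Atp8 also overlaps mt-Atp6 in position, and reads that overlap several genes were left out of the counts. Among the higher genes the share was 59.2% for mt-Nd4, 23.6% for mt-Co1 and 0% for mt-Cytb, mt-Nd1, mt-Nd2, mt-Nd5 and mt-Nd6. The annotated nuclear pseudogene Gm28661, of 681 bases, held 4496 to 4867 counts per library, more than mt-Co2, of 684 bases, with 3048 to 3320. Whether shared sequence or overlap lowered the values of the 6 low genes was not tested.

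Among nuclear protein-coding genes, the translation elongation factor Eef1a1 was the most abundant at 3819, 3779 and 3947 TPM. It was followed by Cpe, the carboxypeptidase that matures neuropeptides, at 3620.2, 3699.9 and 3702 TPM, and by Calm2 and Calm3. Of the 25 highest genes, postsynaptic and calcium signalling gave Nrgn (2689 TPM, neurogranin, which binds calmodulin at low calcium), Camk2a (2469), Hpca (1900.5, the calcium sensor hippocalcin) and Ddn (1884, dendrin, a dendritic protein). Ion transport gave Atp1b1, a subunit of the sodium pump, at 2109 TPM. Protein synthesis and folding gave Rplp1 (2889), Rps15 (1707), Eef1a2 (1704) and Hsp90ab1 (2377), and glycolysis gave Aldoa (1930.2). Several of the 25 are known from astrocytes or from many cell types: Cst3 (2634, cystatin C), Apoe (2482, apolipoprotein E), Sparcl1 (2296) and Psap (2356, prosaposin). Also among them were Ubb (2155, polyubiquitin), Selenow (2489), Ncdn (2483, neurochondrin), Fth1 (2307, ferritin heavy chain) and Gpm6a (1589.9, a neuronal membrane glycoprotein).

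Among the 10 leading genes by CPM were mt-Co1, mt-Cytb, Meg3, mt-Nd1, Camk2a, mt-Nd5, mt-Nd4, mt-Rnr2 and mt-Nd2. Meg3, a long noncoding RNA of the imprinted Dlk1-Dio3 region, held 5912, 5754 and 5860 CPM, and Camk2a 4601, 4703 and 4606 CPM. Per length, Bc1, a short dendritic RNA of 168 bases, was the highest nuclear noncoding transcript with a gene name at 2590, 1449 and 2852 TPM, low in library 2. Meg3 came next at 1303, 1262 and 1287 TPM. The pseudogene Atp6v0c-ps2 and the microRNA locus Mir5125, annotated with 79 bases, followed at 953 and 864 TPM. Mir5125 held only 616, 645 and 679 counts, a mean of 17.2 CPM, so its TPM rests on its short length. It lies within the span of the protein-coding gene Srrm2, on the same strand, and Srrm2 averaged 1047 CPM. Whether the reads of Mir5125 came from Srrm2 transcripts was not tested. Malat1, a nuclear RNA, was the next of these at 586, 399 and 465 TPM. Of the other long noncoding RNAs Miat and Peg13 averaged 284 and 217 TPM. Neat1, the scaffold of paraspeckles, was near the foot of the list of abundant noncoding RNAs at 20.6, 18.0 and 19.8 TPM.

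The question of cell content was addressed with 18 lists of marker genes. In bulk libraries fewer cells of a type and less RNA per cell cannot be told apart. Neuronal genes were abundant: the 10 pan-neuronal markers had a list median of 443 ± 5.91 TPM (SD of the libraries' medians, n = 3), and the lowest, Elavl4, averaged 43.2 TPM. Snap25, a SNARE of the presynaptic membrane, was at 1019, 1020 and 1017 TPM, Thy1 at 921, 947 and 929, and Syt1, the calcium sensor of fast release, at 804, 807 and 786 TPM. Excitatory genes followed with a median of 267 ± 6.40 TPM over 8 genes, led by Nrgn, Camk2a and Slc17a7. Interneuron genes had a median of 81.7 ± 0.38 TPM over 14 genes. The peptide genes Sst (1001, 1037 and 1048 TPM) and Cck (698, 684 and 709 TPM) led that list. The GABA-synthesizing enzymes Gad1 and Gad2 averaged 171 and 107 TPM and the vesicular GABA transporter Slc32a1 82.8 TPM. Parvalbumin, Pvalb, averaged 80.7 and Vip 14.2 TPM.

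The markers of every hippocampal field were present. In the CA1 list Mpped1, Wfs1 and Fibcd1 averaged 201, 201 and 140.2 TPM. In the CA3 list Nptx1, a neuronal pentraxin, averaged 468 TPM, Bok 100.2 and Cpne4 73.4 TPM. In the CA2 list Necab2, Rgs14 and Amigo2 averaged 186, 78.6 and 38.5 TPM. In the dentate list Calb1, the calcium buffer calbindin, averaged 98.9 TPM, C1ql2 79.6 and Stxbp6 66.4 TPM, and Prox1, the transcription factor that specifies granule cells, 55.9 TPM. All 26 entries of these 4 lists exceeded 1 TPM by their mean, as did 6 of 18 genes of the off-tissue list described below. The lowest entries, Map3k15 of the CA2 list and Tdo2 of the dentate list, averaged 1.99 and 5.85 TPM. The list medians were 91.8, 61.6, 26.8 and 42.2 TPM for CA1, CA3, CA2 and dentate gyrus. Shares of cells cannot be read from these medians, because the markers differ in level per cell.

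Markers of immature neurons and progenitors were low, with a median of 6.72 ± 0.39 TPM over 10 genes. Calb2 at 88.4 TPM was an exception, and is also a marker of some interneurons and mossy cells. Dcx, the microtubule protein doublecortin, averaged 11.0 TPM and the proliferation marker Mki67 1.97 TPM. Eomes, a marker of intermediate progenitors, was the only one under 1 TPM at 0.35, 0.89 and 0.85 TPM.

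**Figure D2:**
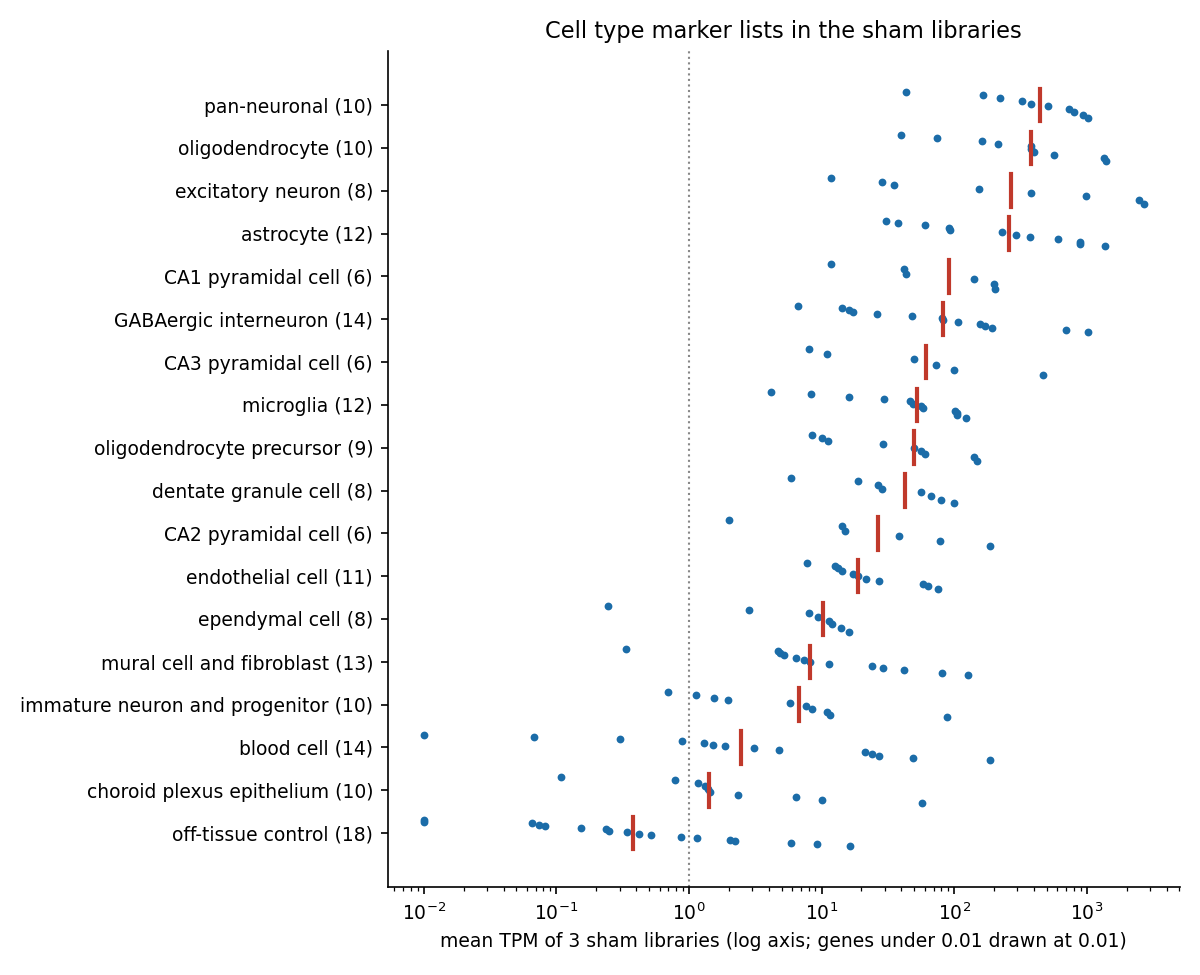
Mean TPM of the 3 sham libraries (x axis, log scale) for each gene of 18 marker lists (y axis, number of genes in brackets); each point is a gene, each red bar the median of the list and the dotted line 1 TPM. The oligodendrocyte and astrocyte lists lie beside the neuronal lists, and the blood, choroid plexus and off-tissue lists lie lowest.

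The cells were collected by a neuronal reporter, and genes of glia were abundant as well. The oligodendrocyte list had a median of 380 ± 5.01 TPM over 10 genes, the lowest being Opalin at 39.7 TPM. Mbp, myelin basic protein, was at 1389, 1386 and 1381 TPM and Mobp at 557, 558 and 570.5 TPM. The astrocyte list had a median of 261 ± 2.94 TPM over 12 genes, with Sox9 lowest at 30.8 TPM. It was led by the glutamine synthetase Glul (1382, 1387 and 1381 TPM), the glutamate transporter Slc1a2 (902, 894 and 874 TPM) and Aldoc (876, 877 and 898 TPM). Mbp and Glul thus lay above Snap25, and Mobp, Slc1a2 and Aldoc below it. That order was kept with the longest transcript of each gene. By the median length of annotated transcripts, Mobp, Slc1a2 and Aldoc at 2134, 6849 and 1218 TPM also exceeded Snap25 at 1032 TPM. By CPM, without length, Slc1a2 (2941) lay above Snap25 (1740) and Glul (1156) below it. Rbfox3, which encodes the neuronal nuclear antigen NeuN and is among the lower pan-neuronal markers, was at 165, 167 and 163 TPM. The order of the lists depended on the measure of length: with the longest transcript of each gene, the medians were 590 TPM for the pan-neuronal, 317 for the astrocyte, 308 for the oligodendrocyte and 210 for the excitatory list.

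Microglial genes had a median of 52.7 ± 1.21 TPM over 12 genes, led by the protease Ctss at 129, 122 and 116 TPM and the complement genes C1qa and C1qb at 105 and 104 TPM. Oligodendrocyte precursor genes had a median of 49.7 ± 3.22 TPM, with Olig1, Bcas1 and Sox10 at 149.6, 140.3 and 60.4 TPM and the receptor Pdgfra at 29.1 TPM. Endothelial genes had a median of 18.9 ± 0.66 TPM, led by the glucose transporter Slc2a1 at 75.7 TPM, Ly6c1 at 63.4 and the tight junction gene Cldn5 at 58.5 TPM. Among mural cell and fibroblast genes, with a median of 8.13 TPM, Vtn, Rgs5 and Dcn averaged 127, 81.4 and 41.9 TPM, and Tagln was at 0.33 TPM. Dcn is also in the CA1 list.

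Ependymal genes had a median of 10.1 ± 1.33 TPM, led by Rsph1, Foxj1 and Tmem212 at 16.2, 14.1 and 11.9 TPM. Choroid plexus genes had a median of 1.70 TPM, with the thyroid hormone carrier Ttr at 58.8, 55.0 and 58.0 TPM, Kl at 10.1 and Sostdc1 at 6.38 TPM, and 2 of 10 genes, Otx2 and Slc4a5, under 1 TPM. Blood genes had a median of 2.56 ± 0.25 TPM. The beta globin Hbb-bs led at 187, 182 and 190 TPM, with Hba-a1 at 49.1 and Lyz2 at 27.3 TPM. The erythrocyte anion exchanger Slc4a1 had no count, Cd3e, which marks T cells, averaged 0.068 TPM, Ms4a7 0.30 and the leukocyte gene Ptprc 0.88 TPM. For comparison, 12 of 18 genes typical of liver, muscle, pancreas, testis and other organs were under 1 TPM, with a list median of 0.39 TPM. Acta1, Myh6 and Myl2, genes of muscle in that list, were higher at 16.3, 9.27 and 5.92 TPM. Of 1093 olfactory receptor genes 7 reached 1 TPM. The origin of the glial transcripts in the sorted material was not tested.

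Gene families were compared next, by TPM with the union of a gene's exons as its length. The leading member was the same in 42 of 48 families when the longest transcript was used, and in 24 when the median length of all annotated transcripts was used. Signalling families were dominated by few members. Of the calmodulin genes, Calm2 was at 3683, 3532 and 3661 TPM and Calm3 at 2987, 3035 and 3022 TPM. Their libraries did not overlap, although Calm3 exceeded Calm2 when the median transcript length was used. Calml4 averaged 1.76 TPM, and Calm4 and Calml3 had no count. Calm2 and Calm3 encode the same protein, as the sequences above show.

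Camk2a, the alpha subunit of CaMKII, was at 2457, 2499 and 2452 TPM and made up 65.2% of the TPM of its list. It exceeded Camk2b, the beta subunit, at 581, 576 and 582 TPM, by 4.26-fold. The endogenous inhibitor Camk2n1 followed at 479, 480 and 484 TPM, while Camk2g and Camk2d averaged 112 and 9.40 TPM. With the longest transcript, Camk2b was at 1009 and Camk2d at 30.1 TPM, and the order of these genes was kept. Among other calcium-binding proteins Nrgn (2688, 2688 and 2690 TPM) and Hpca (1873, 1909 and 1920 TPM) led, and their order turned with the longest transcript (2115 and 2365 TPM). The visinin-like protein Vsnl1 and Hpcal4 averaged 775 and 766 TPM, and their libraries overlapped.

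Among cytoskeletal genes Actb, beta-actin, was at 1396, 1399 and 1385 TPM and Actg1, gamma-actin, at 574, 600 and 586 TPM, a ratio of 2.38. The part that the shared windows of Actg1 have in this ratio was not tested. The muscle and smooth muscle actins Acta2, Acta1 and Actc1 averaged 29.1, 16.3 and 9.65 TPM. Among alpha tubulins Tuba1a led at 909, 979 and 995 TPM, with Tuba4a at 377 and Tuba1b at 291 TPM. Among beta tubulins Tubb4a (1286, 1358 and 1324 TPM) and Tubb2a (1211, 1159 and 1203 TPM) exceeded Tubb3, the class III tubulin used as a neuronal marker, at 509, 494 and 521 TPM. Tubb1, the tubulin of platelets, averaged 0.30 TPM. Stmn3, a stathmin, and Map1a led the microtubule-associated proteins at 1016 and 581 TPM. Map1b and Map2 overlapped at 383 and 378 TPM, and Mapt, which encodes tau, averaged 290.4 TPM. The place of Map2 depended on length. By the longest transcript it was at 781 TPM, against 470 for Map1a and 405 for Map1b. By the median transcript length it led the list at 1381 TPM.

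Of the intermediate filament genes, Gfap of astrocytes (367, 376 and 376 TPM) lay above the light neurofilament Nefl (333, 324 and 317 TPM), followed by Ina, Nefm and Nefh at 249.9, 152 and 62.0 TPM. Actin-monomer-binding proteins were represented by Cfl1, cofilin, and Pfn2, the neuronal profilin, at 610 and 529 TPM, an order that turned with the longest transcript. Tmsb10 held 97.7% of the beta-thymosin TPM at 403, 376 and 373 TPM, 59.9-fold above Tmsb4x at 7.92, 4.85 and 6.46 TPM. As described above, Tmsb4x in these libraries lay at the level of the knockout, against their wild-type label. In the wild-type injured libraries the order was the opposite, with Tmsb4x at a mean of 583 CPM and Tmsb10 at 157.7 CPM.

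The sodium pump consumes much of a neuron's ATP. Its beta subunit Atp1b1 was at 2105, 2121 and 2102 TPM, and Atp1b2, a beta subunit of astrocytes, averaged 461 TPM. Glycolysis genes summed to 9277 ± 130 TPM over 26 genes. After Aldoa came Pkm, pyruvate kinase, at 966, 967 and 1005 TPM, and Aldoc and Tpi1 at 884 and 778 TPM. The neuronal enolase Eno2 was at 729, 746 and 746 TPM and Ldhb and Ldha at 747 and 277 TPM. Gapdh was at 101, 109 and 112 TPM, below Tpi1, Pgk1, Pgam1, Eno1 and Pkm, the enzymes that precede or follow it in the pathway. Of the windows of the longest Gapdh transcript, which has 3289 bases, 10.3% recurred elsewhere. In Pgk1, which averaged 568 TPM, 66.1% did. The part of shared sequence in the low value of Gapdh was not tested. Its place also depended on length. By the median transcript length, 565 bases, Gapdh was at 247 TPM, above Pgk1 at 228 and below the other enzymes named. By the longest transcript Gapdh was at 106 and Pgk1 at 549 TPM. The brain creatine kinase Ckb averaged 822 TPM and the mitochondrial Ckmt1 273 TPM.

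Among elongation factors Eef1a1 exceeded Eef1a2, the form of neurons and muscle, by 2.26-fold (1702, 1698 and 1711 TPM for Eef1a2). The gap depended on length: Eef1a1 and Eef1a2 were at 3563 and 538 TPM with the median transcript length and at 4206 and 1340.0 TPM with the longest. Among chaperones Hsp90ab1 was at 2361, 2375 and 2394 TPM and Hspa8, the constitutive Hsc70, at 1302, 1333 and 1361 TPM. The stress-inducible Hspa1a and Hspa1b averaged 6.35 and 24.8 TPM, with 39.7% and 40.5% of windows shared elsewhere. Of the Ywha adaptor genes Ywhae was at 1165, 1173 and 1177 TPM, and Ywhag, Ywhah and Ywhaz averaged between 874 and 900.0 TPM. Ywhab and Ywhaq were lower at 679 and 282 TPM, and Sfn, the epithelial member, was at 2.87 TPM.

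Of the AMPA receptor subunits Gria1 was at 865, 870 and 851 TPM, 3.48-fold above Gria2 at 254, 245 and 245 TPM. Gria2 limits calcium permeability and has the longest exon set of the 4, 15548 bases against 6043 for Gria1, and with the median transcript length the order turned. Gria3 and Gria4 averaged 97.3 and 48.6 TPM. Among auxiliary subunits Cnih2, a cornichon, led at 813, 830 and 829 TPM, 3.71-fold above Cacng8, a TARP, at 222 TPM. By CPM, without length, Cnih2 exceeded Cacng8 by 1.117 on the log2 scale. Cacng2, the TARP known as stargazin, averaged 40.4 TPM, and the lowest of the 12 auxiliary genes, Cacng5, 14.9 TPM. Of the NMDA receptor subunits the obligatory Grin1 was at 144, 152 and 148 TPM and Grin2b at 142, 137 and 138 TPM, which did not overlap but differed by 1.07-fold only. Grin2a averaged 88.0, Grin2c 40.5, Grin3a 21.1 and Grin2d 9.72 TPM, and Grin3b was under 1 TPM. With the longest transcript Grin1 was at 264 TPM against 113 for Grin2b, and with the median transcript length Grin2b was the higher gene.

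Kainate receptors were led by Grik5, a high-affinity subunit, at 199, 205 and 201 TPM, with the auxiliary gene Neto1 at 104 TPM. Grik4, which is enriched in CA3, averaged 49.8 TPM. Grm5, a postsynaptic group I receptor, led the metabotropic receptors at 124, 120 and 119 TPM. Grm3, Grm2 and Grm7 lay between 40.0 and 55.4 TPM, and Grm6, a receptor of retinal bipolar cells, had no count. Of the GABA-A receptor subunits Gabra5 was at 244, 241 and 235 TPM. The subunit encoded by Gabra5 is known for extrasynaptic receptors of the hippocampus. Gabra4 averaged 60.2, Gabra2 57.7 and Gabrd 29.0 TPM. Of 19 subunits, 6 were under 1 TPM, among them Gabra6 of cerebellar granule cells without a count.

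**Figure D3:**
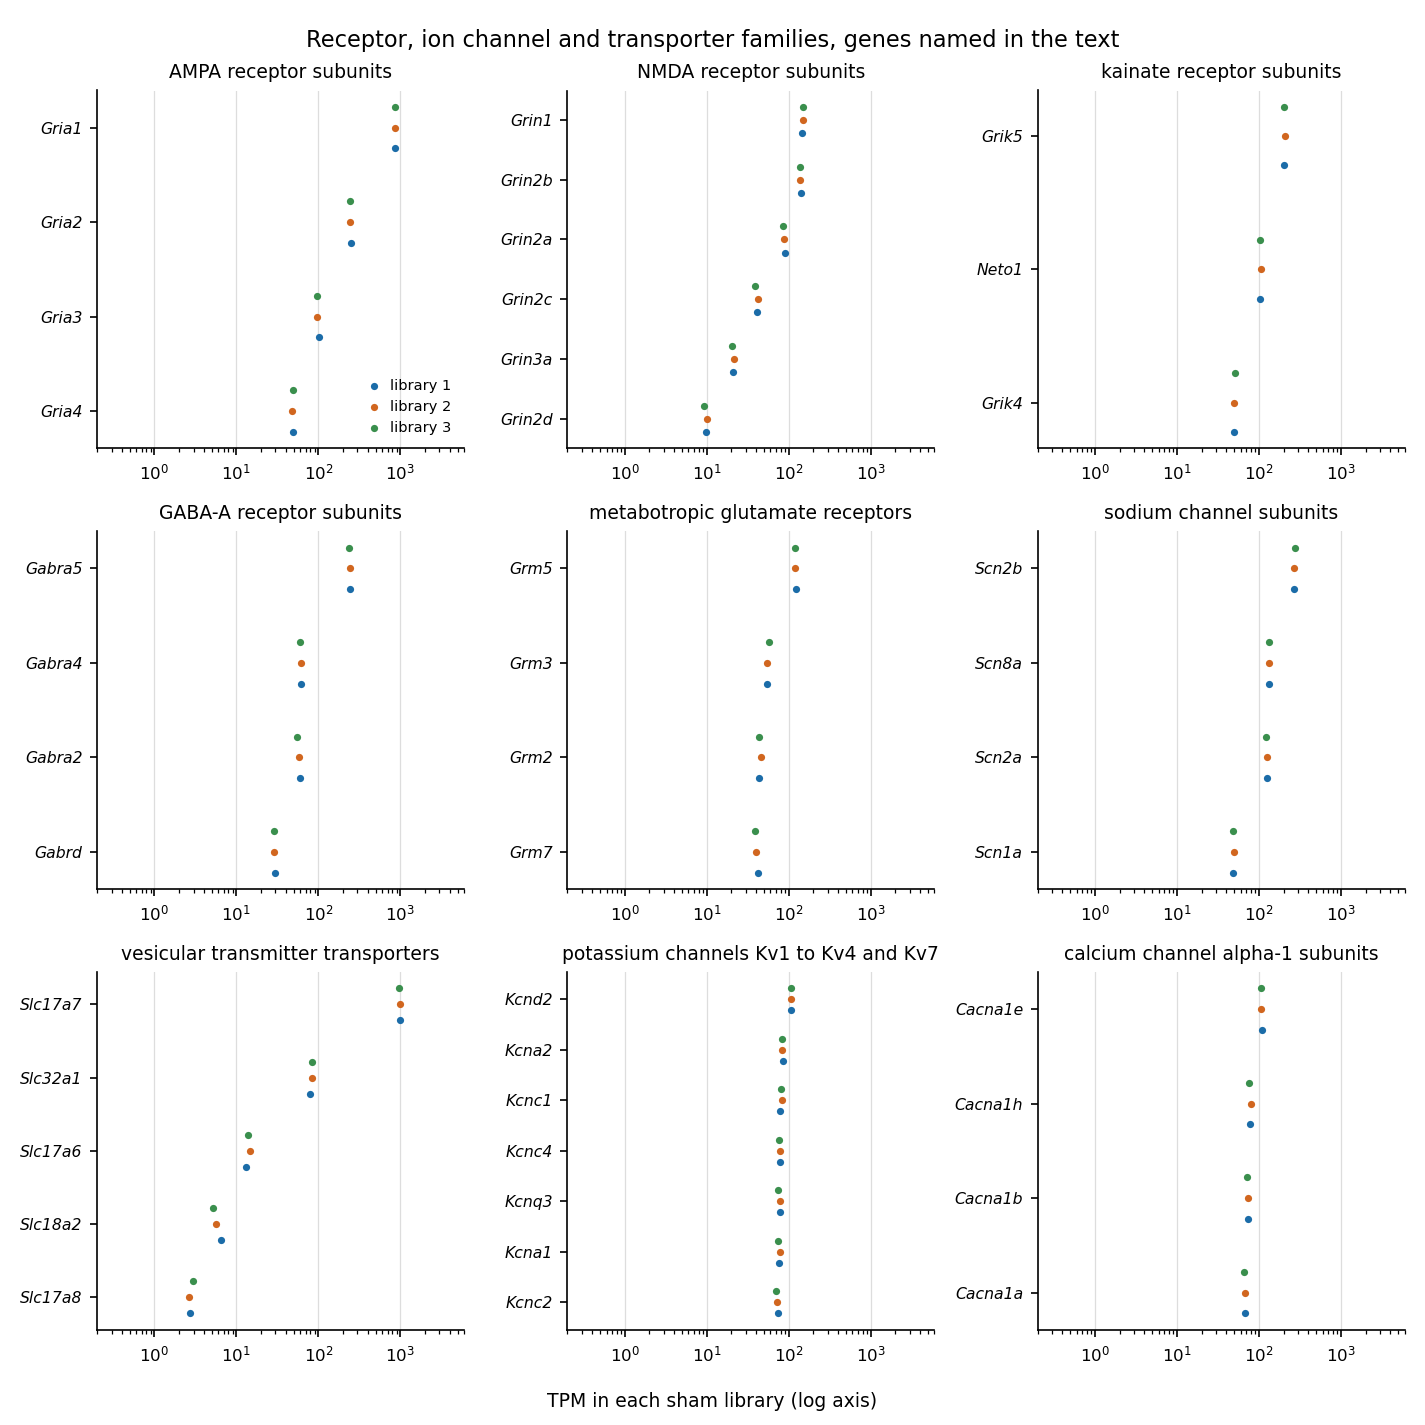
TPM in each of the 3 sham libraries (x axis, log scale; colours mark the library) for the members named in the text, with a mean of at least 1 TPM, of 9 receptor, ion channel and transporter families. Gria1 and Slc17a7 stand apart from the other genes of their panels, whereas the potassium channel genes lie close together.

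Among vesicular transporters the glutamate transporter Slc17a7 was at 978, 1000.3 and 968 TPM. Slc17a6, its paralog of subcortical neurons, was at 13.2, 14.6 and 13.9 TPM and Slc17a8 at 2.78 TPM. The acetylcholine and monoamine transporters were low, with Slc18a2 at 5.82, Slc18a3 at 0.26 and Slc18a1 at 0.066 TPM, and the synthetic enzymes Th, Tph2 and Chat averaged 0.74, 1.08 and 0.12 TPM. Of the voltage-gated sodium channel genes the auxiliary Scn2b was at 271, 269 and 273 TPM. The pore-forming Scn8a and Scn2a averaged 133 and 125 TPM without overlap, and Scn1a, prominent in interneurons, 48.5 TPM. Scn10a of sensory neurons had no count. Hcn2, a channel of the hyperpolarization-activated current, was at 124, 137 and 127 TPM.

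Among potassium channel genes Kcnd2, which carries dendritic A-type current, was at 108, 107 and 105 TPM. Kcna2, Kcnc1, Kcnc4, Kcnq3, Kcna1 and Kcnc2 lay between 72.4 and 83.7 TPM, mostly with overlapping neighbours. Of the calcium channels Cacna1e, which carries R-type current, led at 108, 106 and 105 TPM. The T-type Cacna1h averaged 77.9 TPM, the N-type Cacna1b 73.3 and the P/Q-type Cacna1a 66.9 TPM, and Cacna1f and Cacna1s were under 1 TPM.

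At the presynapse Snap25 and the vesicle SNARE Vamp2 (924, 985 and 942 TPM) led their list, and Stx1a averaged 145 TPM. Cplx2 and Cplx1, complexins that clamp and promote release, were at 1288, 1291 and 1298 and at 962, 995 and 1012 TPM. Cplx3 averaged 6.37 TPM, and Cplx4 was under 1 TPM. Syn1 and Syn2 averaged 607 and 367 TPM and Syn3 4.00 TPM. Of 17 synaptotagmins, Syt1 was followed by Syt11 at 651 and Syt7 at 259 TPM. In the postsynaptic density Dlg4 (PSD-95) and Shank1 averaged 264 and 256 TPM, and Dlg4 was at 435 TPM with the longest transcript. Nlgn2, the neuroligin of inhibitory synapses, averaged 214 TPM against 27.0 for Nlgn1.

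Secreted and activity-regulated genes covered a wide range. Chromogranin Chgb was at 912, 900 and 909 TPM, between the peptides Sst and Cck. That order depended on length, since with the longest transcript Cck, Sst and Chgb were at 896, 809 and 713 TPM, and with the median transcript length at 491, 325 and 286 TPM. Npy averaged 193, Penk 52.6, Pdyn 12.3 and Crh 2.70 TPM. Ntrk2, the receptor of brain-derived neurotrophic factor, was at 133, 133 and 132 TPM, and its ligand Bdnf at 27.1, 25.9 and 26.4 TPM. Immediate early genes were not silent: Jun was at 120, 114 and 118 TPM, and Egr3, Arc and Egr1 averaged 80.3, 78.8 and 77.8 TPM with overlapping libraries. Fos and Npas4 were lower at 6.68 and 6.18 TPM, Dusp1 was at 16.4, 11.0 and 14.1 TPM, and Fosl1 alone of the 21 genes was under 1 TPM. Of the corticosteroid receptors Nr3c2, the mineralocorticoid receptor, exceeded Nr3c1, the glucocorticoid receptor, by 2.21-fold (114, 109 and 110 against 51.6, 49.6 and 49.5 TPM), and with the median transcript length by less, with Nr3c2 at 73.9 and Nr3c1 at 64.4 TPM.

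The spread between the 3 libraries was set against counting noise. For each gene with a mean of at least 20 counts, an index of dispersion was computed from counts divided by 2, as chi-square over its 2 degrees of freedom. An index of 1 is the mean that counting noise alone gives. The median index was 0.88, against 0.70 over all genes of simulated libraries of the same depth. In these, 17055 of 17255 genes differed by counting noise only, and each simulated fragment gave 2 counts. In the sham libraries 59.3 ± 0.59% of genes with a count had an even count (SD, n = 3). Of 17255 genes, 135 (0.782%) varied at a Benjamini-Hochberg adjusted p under 0.05. In simulated libraries, 11 of 17055 unchanged genes were called, as were 30 of 50 genes changed 1.2-fold in 1 library and all 50 changed 1.5-fold. The changed genes were drawn only from genes with a mean of at least 200 counts, so changes in genes below that level were not simulated. The number of sham genes called was 80 without library 1, 64 without library 2 and 63 without library 3, with 1 degree of freedom fewer. It was 2562 when counts were not divided by 2, so it rests on treating mates as 1 fragment. This test compares libraries, not conditions.

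The same index was larger within the injured groups. Among the 3 wild-type injured libraries 9625 of 17361 genes varied (55.4%) with a median index of 4.53, and among the 3 knockout libraries 7039 of 17478 (40.3%) with a median of 2.75. For genes of at least 100 CPM, the median coefficient of variation was 1.92% in sham, 10.3% in wild-type injured and 5.34% in knockout injured libraries. Every pair of sham libraries had fewer called genes (63 to 80) than any pair within an injured group (2782 to 8549). The difference between groups was not tested. The injury and any difference in how the libraries of a group were made cannot be told apart.

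**Figure D4:**
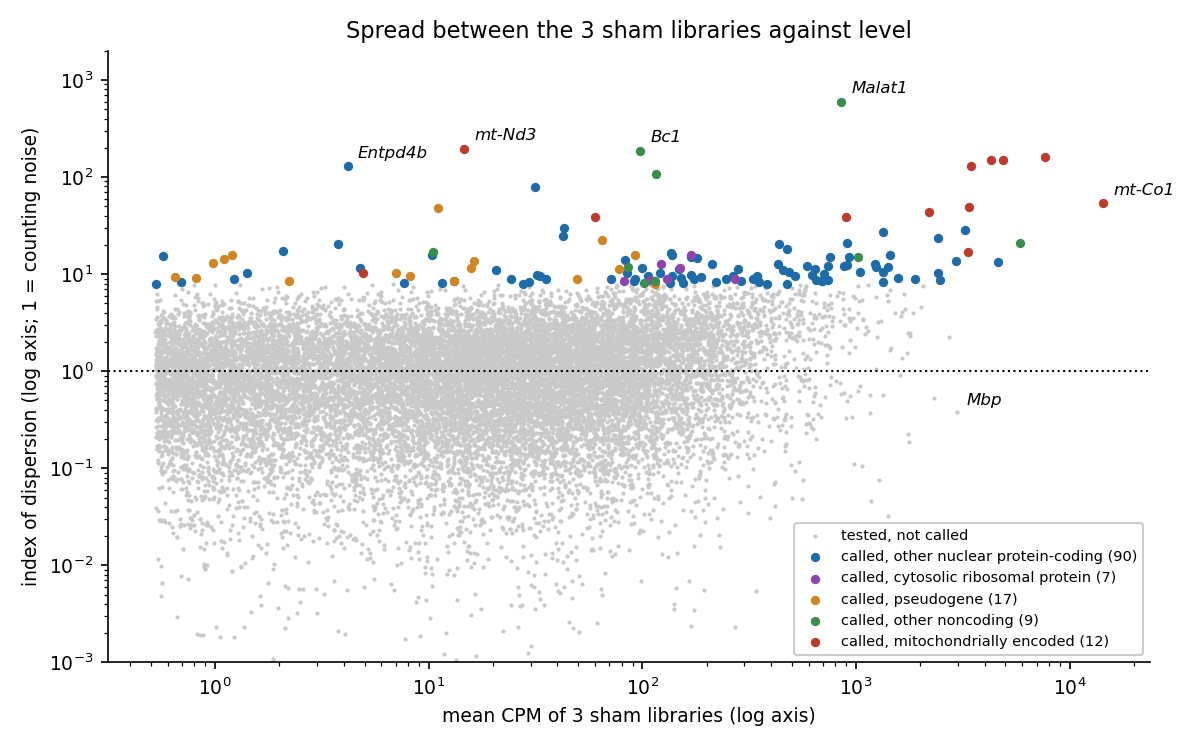
Index of dispersion between the 3 sham libraries (y axis, log scale) against mean CPM (x axis, log scale) for genes with a mean of at least 20 counts; coloured points are the 135 called genes by kind, grey points the other genes, and the dotted line marks 1. Malat1, mt-Nd3 and Bc1 stand above other named genes, while Mbp lies below the line despite its high level.

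The called genes were mostly abundant. They made up 26 of 75 genes at 1000 CPM or more (34.7%) and 58 of 2275 between 100 and 1000 CPM (2.55%), against 13 of 5365 between 1 and 10 CPM (0.242%). By kind, 12 of 17 mitochondrially encoded genes were called, 7 of 78 cytosolic ribosomal protein genes, 17 of 781 pseudogenes (2.18%) and 9 of 2005 other noncoding genes (0.449%). Of other nuclear protein-coding genes 90 of 14361 were called (0.627%). In those 90 the highest library exceeded the lowest by a median of 1.09-fold, and in 66 by under 1.2-fold. Transcripts with sequence shared elsewhere were more frequent among called genes of all kinds pooled: 38.1% had any shared window, against 9.12% of all tested genes. The share was also higher within called pseudogenes (17 of 17, 100%, against 62.0%) and called other nuclear protein-coding genes (25 of 90, 27.8%, against 6.81%). Among other noncoding genes it rested on 1 of 8 called genes (12.5% against 2.28%). It was lower, with few genes each, for called cytosolic ribosomal protein genes (4 of 7, 57.1%, against 76.9%) and mitochondrially encoded genes (4 of 12, 33.3%, against 46.7%). With genes of any shared window left out, 72 were called.

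Malat1 had the largest index, 598, at 1026, 702 and 816 CPM, high in library 1 and low in library 2. mt-Nd3 (index 196) was at 7.57, 7.29 and 28.7 CPM, high in library 3 alone, and Bc1 (index 187) at 109, 61.4 and 121 CPM, low in library 2 alone. The next 7 were mt-Cytb, mt-Nd5, mt-Nd1, mt-Nd4, mt-Co1, mt-Rnr2 and mt-Rnr1. Their differences were small, mt-Cytb being at 7479, 7962 and 7565 CPM and mt-Rnr1 at 2239, 2210 and 2106 CPM, but their counts, at least 80361 per library, were high enough for differences of a few percent to exceed counting noise. The 5 protein genes among them were highest in library 2 and, apart from mt-Cytb, lowest in library 3, and the ribosomal RNAs were highest in library 1. Entpd4b, named after its values were seen, was at 10.4, 1.07 and 1.05 CPM, high in library 1, and 100% of its windows recur in other genes.

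Among nuclear protein-coding genes of the lists, Apoe was at 1320, 1301 and 1384 CPM and Vamp2 at 883, 946 and 903 CPM, and both, named after their values were seen, were called. The called members of the cell type lists included Map2, Camk2a, Slc17a7 and Slc1a2, named here after their values were seen. The genes of highest CPM with an index of at most 1 were Mbp at 2951, 2958 and 2943 CPM, Ncdn at 2308, 2324 and 2320, Map1a at 1772, 1781 and 1777, Snap25 at 1737, 1746 and 1739, and Cplx2 at 1592, 1604 and 1609 CPM.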

How the data were processed

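The authors deposited 1 table of integer read counts for 55421 Ensembl genes in 9 libraries, which featureCounts 2.0.6 assigned to exons annotated by Ensembl release 98 for GRCm38, per the file headers. Alignment with HISAT2 to mm10 and trimming with Trim Galore are named in the submitters' processing notes, without versions. The command counted both mates singly and, by the program's defaults, ignored strand. It left out multi-mapping reads and reads that overlap several genes, so overlapping or near-identical genes may be undercounted.

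The counts of the 3 sham libraries were scaled to CPM with TMM factors (edgeR 4.0.16, R 4.3.3). TPM was computed from the union of exons in GENCODE M21, which matched 55240 of 55421 genes; a length column had been planned for but the count table holds none. Genes without a match held at most 0.00261% of counts in a library. Means and SDs are over 3 libraries. No contrast between groups was made. The index of dispersion was tested on simulated data.

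Named were the 25 nuclear protein-coding genes of highest TPM, the 10 genes of highest CPM, the 5 noncoding genes of highest TPM other than predicted genes and RIKEN clones, the 3 highest members of each cell type list and those under 1 TPM, members of 48 family lists, the 10 genes of largest index with a mean of at least 200 counts other than predicted genes, RIKEN clones and pseudogenes, and the 5 of highest CPM with an index of at most 1. Some genes that this rule covers are not reported here. Members and lists were chosen with earlier results of these data known. Neighbours in a family are said not to overlap where the lowest library of one lies above the highest of the other. Counting error covers sequencing only, since the reads carry no molecular identifiers.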

Additional observations from a re-analysis of the deposited data

How the results depend on the processing

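The number of genes at 1 TPM or more was 15882 with the median transcript length, 18095 with the longest transcript and 15574 at 1 CPM. The mitochondrial share of counts was 4.42% to 4.52% with a library left out. The 100-gene share of TPM was 16.2% without mitochondrially encoded genes, 20.97% with the median transcript length, 24.5% with the longest transcript and 17.7% as a share of counts. The number of genes that varied between sham libraries was 2562 with counts not divided by 2, 72 without genes whose windows recur elsewhere and 63 to 80 with a library left out, while other scalings, count minimums and leaving out mitochondrial genes gave 120 to 137. The longest transcript as a length, and leaving out genes with shared windows or mitochondrial genes, were chosen after seeing the data. Of 126 recomputed values of the 18 cell type lists 68 were labelled as moved, which for a median meant by more than 1 SD of the libraries. The 68 include a sum in place of the median for each list, labelled as moved without a comparison. Medians by CPM, another unit, were also among the 126. Of 252 recomputed ratios between the leading members of 42 families 79 moved by more than 1 SD in the same direction and 28 turned. The turned ratios, as log2 of the first over the second gene, were Calm2/Calm3 -1.06, Tuba1a/Tuba4a -0.81, Stmn3/Map1a -0.39, Gria1/Gria2 -0.15, Grin1/Grin2b -3.71, Grik5/Neto1 -0.48, Slc17a7/Sv2a -0.45, Glul/Slc1a2 -1.38, Cacna1e/Cacna1h -0.016, Snap25/Vamp2 -0.27, Cplx2/Cplx1 -0.35, Aldoa/Pkm -0.067, Ntrk2/Ntrk3 -0.64, Jun/Egr3 -0.16 and Htr1a/Htr2c -0.55 with the median transcript length. They were Nrgn/Hpca -0.16, Cfl1/Pfn2 -0.12 and Snap25/Vamp2 -0.21 with the longest transcript, and Calm2/Calm3 -0.46, Nrgn/Hpca -0.51, Stmn3/Map1a -2.61, Cfl1/Pfn2 -0.11, Grin1/Grin2b -1.27, Glul/Slc1a2 -1.35, Nlgn2/Nrxn2 -0.032, Ywhae/Ywhag -0.72, Sst/Chgb -1.74 and mt-Rnr1/mt-Rnr2 -0.62 by CPM without length. Short annotated transcripts lower a median length, which was 703 bases for Grin2b against 24842 for the union of its exons, and other causes were not tested. No paired analysis was possible because all results describe 1 group of libraries. The share of genes called was 0.36% under 1 CPM, 0.242% between 1 and 10 CPM and 34.7% at 1000 CPM or more, and the part of depth in this was not tested.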

Other observations

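Receptors of modulatory transmitters were present at low to moderate levels, with 11 of 14 genes at 1 TPM or more in each of the serotonin, catecholamine and acetylcholine lists. Chrm1, the muscarinic receptor of forebrain pyramidal cells, was the highest at 149, 154 and 158 TPM, followed in its list by Chrm3 at 39.7 TPM, and the nicotinic genes Chrnb2, Chrna7 and Chrna4 averaged 35.0, 25.0 and 20.9 TPM. The adrenergic receptor Adra1d was at 76.9, 78.6 and 80.5 TPM, above Adra2c at 21.2 TPM without overlap. Dopamine receptors were lower, with Drd5, Drd1 and Drd2 at 9.78, 6.20 and 5.05 TPM, and Drd3 and Drd4 were under 1 TPM. Of the serotonin receptors the inhibitory Htr1a led at 44.0, 43.9 and 42.6 TPM, followed by Htr2c at 20.9 TPM and the ion channel subunit Htr3a, which marks a class of interneurons, at 16.6 TPM.

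Junction and channel genes of glia were among those detected. The astrocyte connexins Gja1 and Gjb6 averaged 91.6 and 74.7 TPM and the oligodendrocyte connexins Gjc3 and Gjb1 averaged 60.8 and 30.4 TPM, against 8.15, 7.05 and 5.79 TPM for the neuronal connexin Gjd2. Cldn11, the claudin of myelin, averaged 380.6 TPM, and the water channel Aqp4 of astrocyte end-feet was at 92.1, 94.7 and 92.2 TPM. Among genes linked to neurodegeneration, the prion protein gene Prnp was at 1469, 1447 and 1502 TPM, Aplp1 averaged 1218 TPM and App 535 TPM. The synuclein genes Sncb and Sncg averaged 568.5 and 16.2 TPM. The progesterone receptor gene Pgr averaged 11.6 TPM, and the estrogen receptor genes Esr1 and Esr2 were under 1 TPM.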
